A study of Mus musculus with 2 samples.

Results

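The endothelial marker genes described here are 10 genes that mark the lining cells of blood vessels, out of 21829 protein-coding genes examined in DNase-seq maps of mouse cerebellum. They were chosen by name, as known markers. The rule used no measured value, but the choice was made with earlier results of these data known. They comprise 4 receptors (Flt1, Kdr, Tek and Tie1), 3 junction and adhesion proteins (Cldn5, Cdh5 and Pecam1) and 3 transcription factors (Erg, Sox17 and Sox18). All 10 were found in the annotation.

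In DNase-seq, nuclei are treated with DNase I, an enzyme that cuts exposed DNA, so that accessible stretches appear as peaks and bases shielded by bound protein appear as footprints within them. The samples were whole cerebellum from 2 male mice, aged 36 days, of the strain B6CASTF1/J, an F1 cross of a B6 with a CAST parent, with 1 library per animal. Both labels carry the same donor entry but different biosample descriptions. The samples were treated as 2 animals, which the labels do not settle. Both animals form 1 group, with no treatment, no mutant allele and no sorted cells. There was therefore no contrast between groups and no test between animals, and the spread between the libraries may be technical.

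Replicate 1 had 140127 peaks and 342409 footprints, and replicate 2 had 114404 peaks and 262603 footprints. Each peak carries a height set by the authors in a unit that is not stated, and heights fell on a grid with a step of 0.00542 in replicate 1 and 0.00988 in replicate 2. The sequencing depth is otherwise unknown. Heights rank peaks within a library, and a ratio between libraries was read only against the same ratio of all promoters. The tissue label was set beside 10 granule cell genes, the markers of the most numerous cerebellar neuron. A peak lay at the promoter in each animal for all 10, against 62.9% of all genes. The median heights of the 10 were 11.4 in replicate 1 and 7.36 in replicate 2. This list was also chosen with earlier results of these data known, so the count is not an independent check of the label. Among the 10 genes, Gabra6 encodes a granule cell GABA receptor subunit. Its height was 1.91 in replicate 1 and 5.36 in replicate 2, the opposite order to most promoters.

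Endothelial cells form the thin inner lining of every vessel and make up a small share of brain tissue, and those of the brain seal their contacts to form the blood-brain barrier. Vascular endothelial growth factors act on the receptor tyrosine kinases Flt1 and Kdr, and angiopoietins act on Tek, with Tie1 as its partner. Cldn5 builds the tight junctions, Cdh5 the adherens junctions, and Pecam1 is an adhesion molecule of the cell contacts, while Erg, an ETS-family factor, and the SOX factors Sox17 and Sox18 direct endothelial gene expression. In a bulk tissue, fewer cells of a type and less accessible DNA per cell cannot be told apart.

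Promoter sequences are shown first because their CpG content differed widely among the members and is set beside their accessibility. The RefSeq promoter table for GRCm38.p6 held entries for 6 of the 10 genes, with 8 starts between them, and none for Cdh5, Pecam1, Sox17 and Sox18. For 5 of these genes, with the outermost start alone at Erg, the 250 bases before the start are printed 5′ to 3′ on the strand of the gene, from lowest to highest CpG ratio. Tie1 and the 2 inner Erg starts are not printed. Capitals mark the 6-base or 7-base words of the motif search described below.
Tek promoter, chr4:94739039-94739288, plus strand: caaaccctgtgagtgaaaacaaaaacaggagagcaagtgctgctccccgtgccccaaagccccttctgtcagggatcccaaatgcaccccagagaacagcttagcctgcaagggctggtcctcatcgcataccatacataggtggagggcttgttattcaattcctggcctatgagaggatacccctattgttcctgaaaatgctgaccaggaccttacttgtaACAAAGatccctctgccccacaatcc
Cldn5 promoter, chr16:18776597-18776846, plus strand: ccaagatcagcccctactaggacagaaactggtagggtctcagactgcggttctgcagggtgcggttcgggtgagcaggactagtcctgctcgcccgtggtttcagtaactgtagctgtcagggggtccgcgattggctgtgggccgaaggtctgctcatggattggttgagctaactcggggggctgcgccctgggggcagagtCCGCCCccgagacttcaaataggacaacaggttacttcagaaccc
Kdr promoter, chr5:75978456-75978705, minus strand: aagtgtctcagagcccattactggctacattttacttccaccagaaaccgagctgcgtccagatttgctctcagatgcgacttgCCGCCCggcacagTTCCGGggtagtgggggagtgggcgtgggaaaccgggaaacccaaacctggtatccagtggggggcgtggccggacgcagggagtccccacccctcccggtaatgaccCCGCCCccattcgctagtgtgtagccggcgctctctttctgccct
Flt1 promoter, chr5:147726012-147726261, minus strand: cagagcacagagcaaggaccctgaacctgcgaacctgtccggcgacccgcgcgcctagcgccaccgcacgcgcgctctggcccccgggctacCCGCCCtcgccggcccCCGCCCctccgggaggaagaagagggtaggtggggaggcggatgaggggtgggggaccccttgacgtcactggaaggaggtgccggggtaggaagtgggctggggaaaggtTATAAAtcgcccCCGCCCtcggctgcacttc
Erg promoter, chr16:95586594-95586843, minus strand: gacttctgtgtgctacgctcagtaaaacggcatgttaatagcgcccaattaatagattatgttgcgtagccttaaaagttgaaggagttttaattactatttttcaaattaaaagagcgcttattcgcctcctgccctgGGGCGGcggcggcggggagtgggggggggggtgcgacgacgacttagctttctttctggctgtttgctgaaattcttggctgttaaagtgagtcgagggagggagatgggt

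The CpG ratio compares the CpG dinucleotides found with those that the base composition would give, over the 250 bases before and 50 bases after the start. It was 0.149 at Tek and 0.289 at Tie1, 0.476 at Cldn5, 0.689 at Kdr, 0.780 at Flt1 and 0.941 at the outermost Erg start. The 2 inner Erg starts in the table had ratios of 0.191 and 0.275. When all 20143 promoters in the table were divided into 5 equal classes by this ratio, Tek fell in class 1, the lowest, Tie1 in class 2, Cldn5 and Kdr in class 3, Flt1 in class 4 and the outermost Erg start in class 5. In both animals the promoter heights given below were in this order at Kdr, Flt1 and Erg, and Tek had no peak. Tie1 and Cldn5 broke the order in replicate 2, where Tie1 had a low peak and Cldn5, with the higher ratio, had none. The highest peaks of Kdr, Flt1 and Erg were centred downstream of the bases that gave the ratio. The Erg peak was the farthest, 892 bp and 922 bp after the start. With a 500 bp window Erg was not among the members with a promoter peak in both animals.

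Cldn5, Kdr, Flt1 and Erg nevertheless lay below their own CpG class. Among all promoters of class 3, 85.3% had a peak in replicate 1 and 80.5% in replicate 2, with median heights of 6.34 and 5.02. Class 4 promoters had a peak in 96.4% and 93.2% of cases, with median heights of 11.5 and 8.06, and class 5 promoters in 98.5% and 97.3%, with median heights of 13.7 and 9.22. The promoter peaks of these 4 genes were all several times lower than their class medians. Class 1, which holds Tek, had a peak in only 14.1% of promoters in replicate 1 and 11.6% in replicate 2, so an empty window is the usual state for a promoter of that base content. Class 2, which holds Tie1, had one in 40.3% and 34.9%.

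The motif search covered both strands of the 8 member promoters and of all 20143. The ETS word CCGGAA, read by factors of the Erg family, was present in 1 member promoter, that of Kdr, at positions -153 to -148 from its start, and in 19.2% of all promoters. The GATA word AGATAAG was present in 2 member promoters, those of Tek, from 37 to 43 bases after its start, and of the innermost Erg start, against 2.62% of all. The SOX words ACAAAG and ACAATG were in the same 2 promoters, against 25.1% of all. The TATA word TATAAA lay at positions -31 to -26 from the Flt1 start, and also before an inner Erg start,, and was in 12.2% of all promoters. The SP/KLF word GGGCGG was in 4 member promoters and in 47.7% of all, while the FOX word TGTTTAC and the AP-1 word TGANTCA were in none of the 8, against 2.96% and 7.0% of all. A match describes the letters only.

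The promoter window reached 1000 bp to either side of the start of each protein-coding transcript in the annotation. A peak overlapped it at 7 of the 10 members in replicate 1, where 67.0% of all genes had one, and at 5 of the 10 in replicate 2, where 63.5% had one. Flt1, Kdr, Erg and Sox17 had a promoter peak in both animals, 4 of 10, against 62.9% of all genes. Tek and Sox18 had none in either animal, 2 of 10, against 32.4% of all genes. The other 4 members, Cldn5, Cdh5, Pecam1 and Tie1, had one in 1 animal alone, a state that was found in 4.71% of all genes.

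Members with a promoter peak had low ones. The median height was 0.455 over 7 members in replicate 1 and 0.425 over 5 members in replicate 2, whereas all promoters with a peak had medians of 9.10 (n = 14627) and 6.65 (n = 13870). No member in either animal came near the median of all promoters, and the highest, Erg in replicate 1, stood at percentile 17.0.

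**Figure D1:**
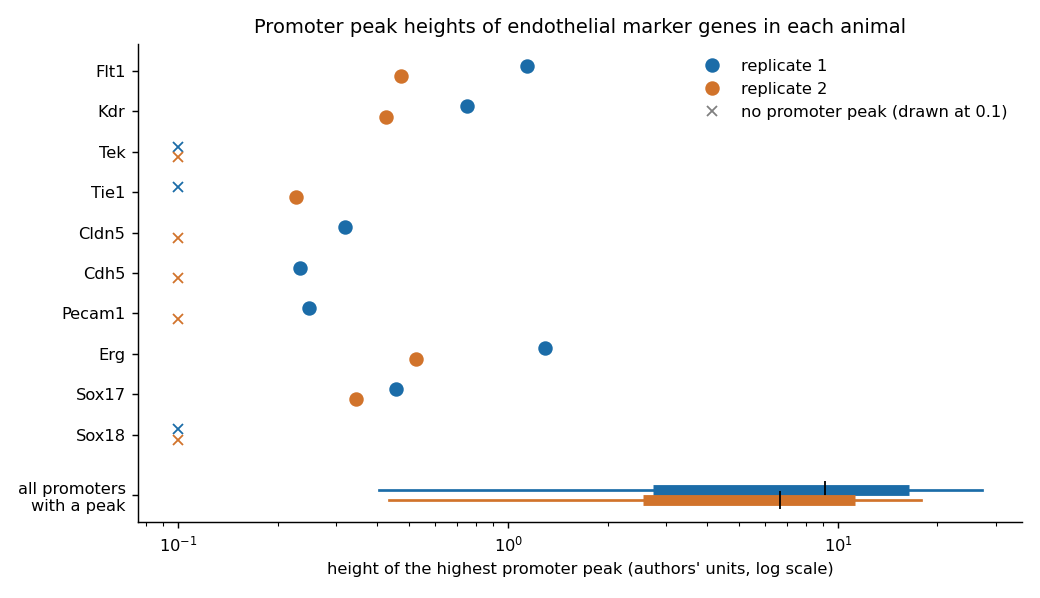
Height of the highest promoter peak of each gene (horizontal, log scale, authors' units) in replicate 1 (blue) and replicate 2 (orange), with crosses for genes without a peak. The lowest row shows all promoters with a peak, with the median as a tick, the 25th to 75th percentile as a thick bar and the 5th to 95th as a thin line. All members lie at or below 1.29, far left of the medians of 9.10 and 6.65.

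Among the receptors, Flt1, which binds VEGF-A and placental growth factor and also occurs as a soluble decoy, had a highest promoter peak of 1.14 in replicate 1 and 0.474 in replicate 2. These stood at percentiles 15.7 and 5.69 of all promoters with a peak. The peak was centred 250 bp after the outermost start in replicate 1 and 254 bp after it in replicate 2. Replicate 1 had 2 further low peaks in the window, and 5 promoter footprints, while replicate 2 had 1 peak and 0 footprints.

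Kdr, the main signalling receptor for VEGF-A, had 3 promoter peaks in each animal at matching places. Their heights were 0.607, 0.748 and 0.618 in replicate 1, reading from upstream to downstream, and 0.346, 0.425 and 0.316 in replicate 2. The middle peak, centred 207 bp after the start in replicate 1 and 227 bp after it in replicate 2, was the highest in both animals, at percentiles 11.1 and 4.71. No other member had more than 1 promoter peak in both animals. It also had the most promoter footprints of the 10, with 10 in replicate 1, but 1 in replicate 2.

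Tek, the angiopoietin receptor, had no peak in its promoter or anywhere in its gene body in either animal. Tie1 had no promoter peak in replicate 1, and in replicate 2 a single one of height 0.227, centred 140 bp after its outermost start and at percentile 0.815. It held no footprint. The receptors thus split into Flt1 and Kdr, with peaks in both libraries, and Tek and Tie1, with none or one at the bottom of the list.

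Among the junction and adhesion genes, each had a promoter peak in replicate 1 and none in replicate 2. The heights were 0.320 at Cldn5, 0.249 at Pecam1 and 0.233 at Cdh5, at percentiles 2.82, 1.51 and 1.21. The Cldn5 peak was centred 554 bp after the start, the Cdh5 peak 47 bp before it, and the Pecam1 peak at a group of inner starts, 35481 bp into the gene. Each held 1 footprint. Across all genes, 251 had a replicate 1 height within the range of these 3, and 38.7% of them had a promoter peak in replicate 2, so loss of a peak this low between libraries was the more frequent outcome. At Cldn5, a stretch below a false discovery rate of 0.05 was nevertheless listed in replicate 2, where no peak was called.

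Cdh5 had a stronger group of peaks just outside the window. These were 3 peaks in each animal, centred between 1626 and 2504 bp before the start. Their heights were 0.938, 2.43 and 1.06 in replicate 1 and 0.751, 1.25 and 0.553 in replicate 2, reading towards the start. All 6 held at least 1 footprint. The highest of them in replicate 1, at 2.43, was well above the 0.233 of the promoter peak itself.

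Among the transcription factors, Erg had the highest promoter peak of the 10 members in both animals, at 1.29 in replicate 1 and 0.523 in replicate 2, percentiles 17.0 and 6.59. It lay near the edge of the window, centred 892 bp after the outermost start in replicate 1 and 922 bp after it in replicate 2, and held 3 footprints and 1 footprint. Sox17 reached 0.455 in replicate 1 and 0.346 in replicate 2, percentiles 6.07 and 3.04, at its innermost start, 3723 bp and 3725 bp into the gene. Near its outermost start, Sox17 had a peak of 0.239 in replicate 1 and none in replicate 2. Sox18 had no promoter peak in either animal.

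A promoter footprint was found at 7 of 10 members in replicate 1, where 65.4% of all genes had one, and at 2 of 10 in replicate 2, where 60.7% had one. Kdr and Erg had one in both animals, 2 of 10, against 60.5% of all genes. Over the members with a peak in both animals, the mean of both heights ran from 0.400 to 0.907, and 980 genes fell in that range. Those 980 genes had a median of 3 promoter footprints in replicate 1 and 1 in replicate 2, with at least 1 in 97.3% and 75.4% of them. The Kdr pattern of 10 footprints in replicate 1 and 1 in replicate 2 was met or exceeded by 14 of these genes, or 1.43%. Kdr is itself among the 14, and the cutoffs were taken from its values, so the share is a description. The total number of footprints, 342409 in replicate 1 and 262603 in replicate 2, moved with these counts, and its part in them was not tested.

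Stretches at a false discovery rate below 0.05, the authors' less strict measure, touched the promoter window of 7 of 10 members in replicate 1, against 67.8% of all genes, and of 6 of 10 in replicate 2, against 64.5%. In both animals they touched 5 of 10, against 63.7%, which adds Cldn5 to the 4 members with peaks. Tek and Sox18 had none by this measure either.

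The ratio of heights between libraries could be taken for 4 members. On the log2 scale, replicate 1 over replicate 2, it was 1.30 at Erg, 1.26 at Flt1, 0.82 at Kdr and 0.40 at Sox17, with a median of 1.04. Over all 13734 promoters with a peak in both animals the median was 0.60, with 5% of them below -0.01 and 5% above 1.00. Erg and Flt1 thus lay beyond the upper end of that band, at percentiles 99.5 and 99.3, Kdr lay within it at percentile 82.5, and Sox17 below the median at percentile 24.3.

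Low peaks have more variable ratios, so the 4 genes were also set beside the 980 genes of like height. There the median log2 ratio was 0.48 and the band ran from -0.32 to 1.13. Erg stood at percentile 98.0, Flt1 at 97.7, Kdr at 81.6 and Sox17 at 41.1 of those genes. The members did not share 1 shift between the animals, since Sox17 lay on the other side of the median from Erg and Flt1. With 1 library per animal, a difference between the animals and one between the library preparations cannot be told apart.

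**Figure D2:**
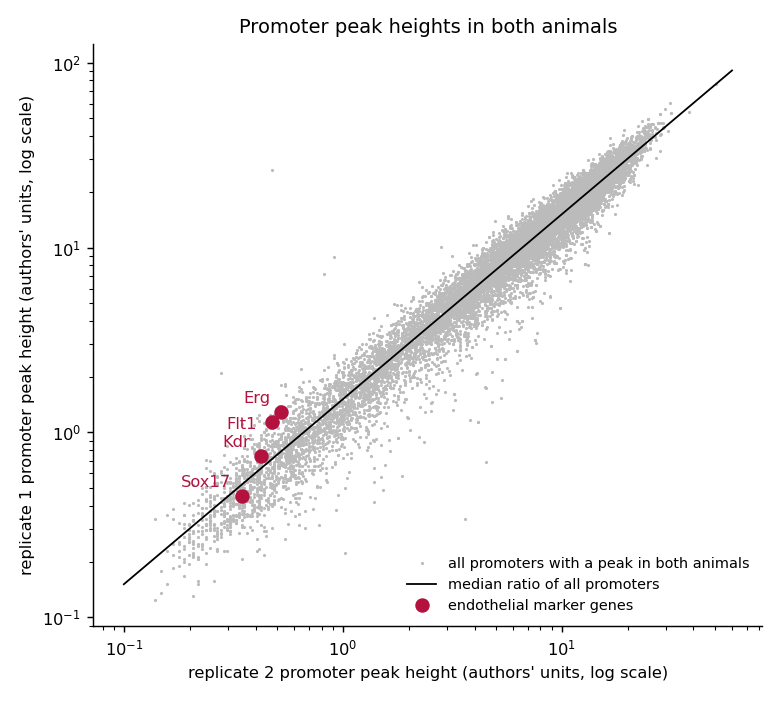
Promoter peak heights in replicate 1 (vertical) and replicate 2 (horizontal) on log scales in authors' units, for the 13734 genes with a peak in both animals (grey) and the 4 members among them (red). The line marks the median log2 ratio of 0.60; Erg and Flt1 sit above it, Kdr slightly above and Sox17 slightly below.

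The territory of each gene was taken as its body and 50000 bp on both sides. The members had a median of 8.5 peaks in replicate 1 and 7 in replicate 2, against 11 and 9 for all genes. Averaged over both animals, the direction turned with flanks of 10000 bp, where the members had a median of 4.5 and all genes 4, and in the gene body alone both had 2. Per 100000 bp the medians were 4.91 and 4.03 peaks for the members, against 7.74 and 6.70 for all genes. Footprints had medians of 20 and 10 for the members, against 31 and 24.

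The range among members was wide. Tek had 1 peak in replicate 1 and 0 in replicate 2 in a territory of 235688 bp, and no footprint in either. That single peak was 50 bp wide, 0.179 high and 22057 bp before the start. Sox17 had 5 peaks and 2 peaks, with 4 footprints and 0. At the other end, Pecam1 had 27 and 17 peaks with 80 and 68 footprints, and Sox18 had 17 and 18 peaks with 46 and 45 footprints. The rest ran from 4 to 17 peaks in replicate 1 and from 4 to 15 in replicate 2.

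**Figure D3:**
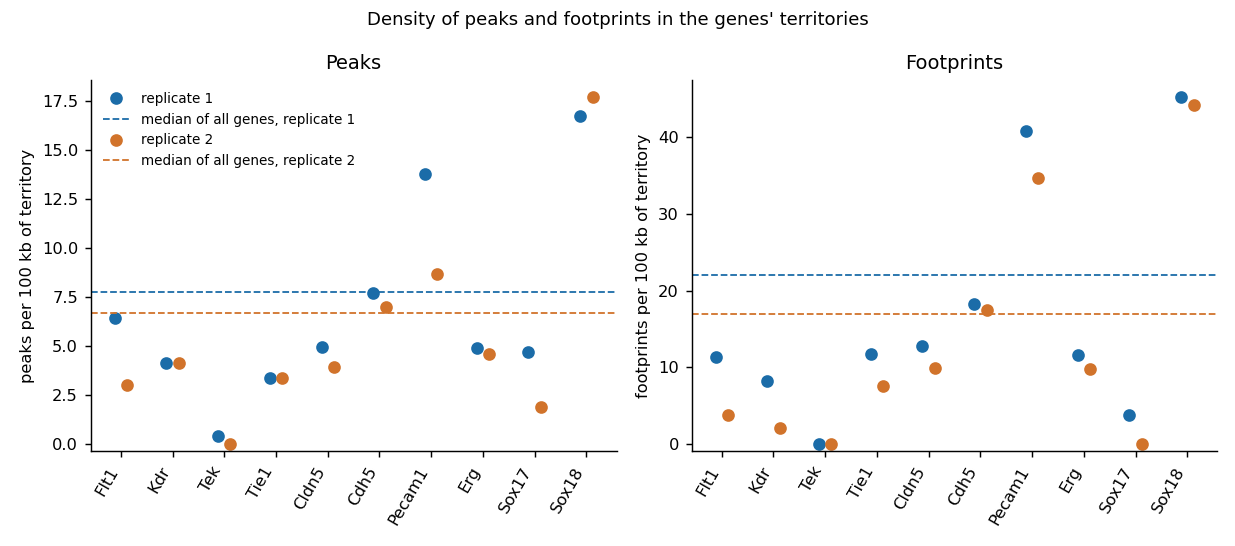
Peaks (left panel) and footprints (right panel) per 100 kb of territory for each gene in replicate 1 (blue) and replicate 2 (orange), with dashed lines at the medians of all genes (7.74 and 6.70 peaks). Sox18 and Pecam1 lie above the lines in both libraries, Tek lies at or near 0, and most others lie below.

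Some of these peaks lay in the promoters of neighbouring genes. Over all 10 territories there were 109 peaks in replicate 1, of which 13 lay in the gene's own promoter, 22 in promoters of other genes, 30 in the gene body and 44 in the flanks. Replicate 2 had 84 peaks, with 7, 20, 19 and 38 in the same classes. The highest peak of the Pecam1 territory, 31.1 in replicate 1 and 18.3 in replicate 2, was in the shared promoter of Ddx5 and Cep95, and that of the Cldn5 territory, 5.56 and 5.24, was in the shared promoter of Cdc45 and Ufd1. Sox18, with no promoter peak of its own, had neighbouring promoter peaks of up to 6.33 in replicate 1 and 3.94 in replicate 2, both at Tcea2.

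Peaks outside any promoter window, called distal here, numbered 74 in replicate 1 and 57 in replicate 2. Pooled over the 10 territories, and unlike the promoter peaks, they were about as high as distal peaks in general. Their median height was 0.713 in replicate 1 and 0.751 in replicate 2, against 0.640 and 0.770 over all distal peaks. The pool leaned on Pecam1, Erg and Sox18, with 15, 15 and 13 of the peaks in replicate 1 and 9, 14 and 13 in replicate 2. Medians by gene ran from 0.179 at Tek to 1.24 at Cldn5 in replicate 1. In replicate 2 they ran from 0.198 at Sox17 to 0.879 at Erg. A peak of the other animal overlapped 68.9% of the members' distal peaks in replicate 1 and 87.7% in replicate 2, against 62.0% and 78.0% of all distal peaks. A footprint lay in 85.1% and 82.5% of them, against 78.0% and 72.4%. The log2 height ratio of the 51 shared ones had a median of 0.44, against 0.23 over all 67133.

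**Figure D4:**
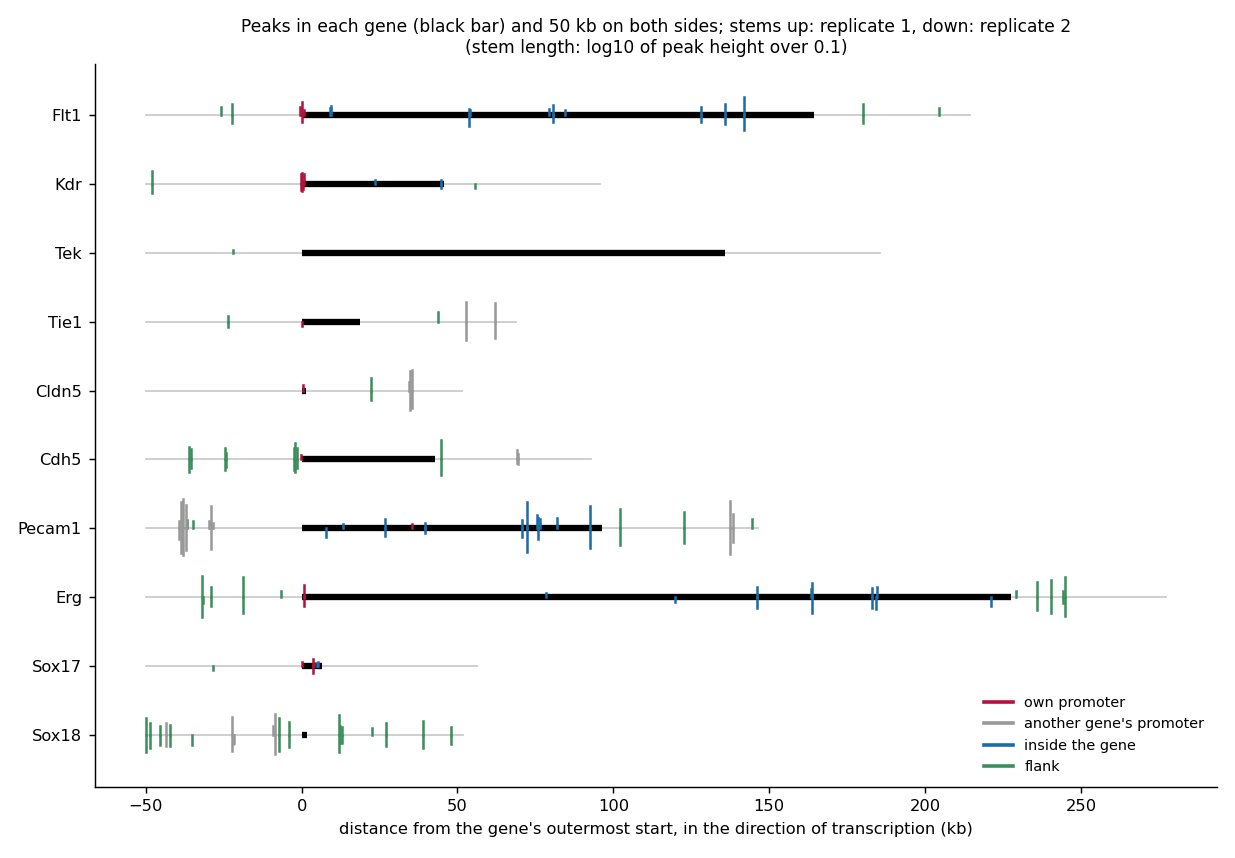
Peaks by distance from the gene's outermost start (horizontal, kb, in the direction of transcription) for the 10 genes, whose bodies are black bars. Stems point up for replicate 1 and down for replicate 2, with length by the log10 of height over 0.1, and colours mark own promoters, other genes' promoters, gene bodies and flanks. Tek shows 1 short stem, Pecam1 and Erg show tall ones away from their starts, and Sox18 shows none at its own start.

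The distal peaks that follow were the highest of their territory found in both animals, printed 5′ to 3′ on the strand of the gene from the GRCm38.p6 reference, whose letters need not match the CAST chromosome of the hybrid. Only genes present in the RefSeq promoter table are shown. Capitals mark the bases inside a footprint in replicate 1.
Flt1 intronic peak, chr5:147584041-147584240, minus strand: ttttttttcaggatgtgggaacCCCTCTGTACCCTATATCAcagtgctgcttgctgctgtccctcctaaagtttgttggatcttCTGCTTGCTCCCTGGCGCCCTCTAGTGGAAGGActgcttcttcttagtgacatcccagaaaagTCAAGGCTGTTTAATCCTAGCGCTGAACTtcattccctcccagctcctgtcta
Kdr upstream peak, chr5:76026401-76026560, minus strand: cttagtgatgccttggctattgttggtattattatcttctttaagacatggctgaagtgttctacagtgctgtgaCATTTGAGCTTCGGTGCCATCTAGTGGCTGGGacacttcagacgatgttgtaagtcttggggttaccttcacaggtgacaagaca
Cldn5 downstream peak, chr16:18798961-18799120, plus strand: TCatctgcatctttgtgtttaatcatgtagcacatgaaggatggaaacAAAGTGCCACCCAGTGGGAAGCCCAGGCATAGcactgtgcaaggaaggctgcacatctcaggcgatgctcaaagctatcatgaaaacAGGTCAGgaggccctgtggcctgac
Erg upstream peak, chr16:95618321-95618500, minus strand: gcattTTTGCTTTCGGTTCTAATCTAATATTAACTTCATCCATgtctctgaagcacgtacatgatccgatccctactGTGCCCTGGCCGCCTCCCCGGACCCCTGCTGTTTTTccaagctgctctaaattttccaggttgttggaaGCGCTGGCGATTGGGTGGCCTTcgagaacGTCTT

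The Flt1 peak lay in an intron, 141870 bp from the start and nearer to the start of Pan3, 44864 bp away. Its heights were 3.54 in replicate 1 and 2.04 in replicate 2, percentiles 88.8 and 80.2 of all distal peaks. It was higher than the Flt1 promoter peak in both animals. Footprints covered 81 of its 200 bases in replicate 1 and 63 in replicate 2, and 62 bases were covered in both. The Kdr peak was intergenic, 48023 bp before the start, with heights of 1.24 and 0.681. Footprints covered 32 of its 160 bases in replicate 1 and 36 in replicate 2, with 25 bases in both.

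The Cldn5 peak, 22194 bp after the start, lay in an intron of Cdc45, a replication gene, with heights of 1.24 and 0.721. Its footprints covered 41 bases in replicate 1 and 10 in replicate 2, and all 10 lay within the 41. The SOX word ACAAAG overlapped a footprint there in replicate 1 but not in replicate 2, and its reverse form CTTTGT overlapped none in either animal. SOX words were in 16.2% of the members' distal peaks in replicate 1 and 17.5% in replicate 2, against 20.3% and 22.0% of all. The Erg peak was intergenic, 31818 bp before the start, where Erg was the nearest gene start, with heights of 6.93 and 4.95, percentiles 95.6 and 94.6. Its footprints covered 101 of 180 bases in replicate 1 and 84 in replicate 2, with 82 bases in both, so the protected stretches largely coincided.

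Of the members without a printed sequence, Pecam1 had the highest distal peak of all, 19.5 in replicate 1 and 11.0 in replicate 2, percentiles 99.7 and 99.3. It lay in a Pecam1 intron at chr11:106678121-106678280, 72427 bp from the outermost start. A second intronic Pecam1 peak, nearer to the start of Tex2, had heights of 9.39 and 5.07. Both stood far above the 0.249 of the Pecam1 promoter peak.

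The highest distal peak of Cdh5, 4.71 in replicate 1 and 2.15 in replicate 2, lay 44876 bp after the start, outside the gene and nearer to the start of Bean1. That of Sox18, 6.11 and 2.77, lay 11899 bp after the start and nearer to that of Gm29797. Erg had a further peak 18918 bp upstream, at 5.25 in replicate 1 and 1.98 in replicate 2. A Tie1 peak found in both animals had 0.287 in replicate 1 and 0.306 in replicate 2. Sox17 had 0.249 and 0.198, at different places, and Tek had no distal peak beyond the one named.

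Several of these distal peaks held the CTCF consensus, the 12-base core bound by CTCF, a factor that organises chromatin loops and domain borders. The consensus was added to the search after the sequences had been seen, so its counts are a description. In the 200 bp at the centre of each distal peak it was found in 10 of 74 member peaks in replicate 1, or 13.5%, and in 10 of 57 in replicate 2, or 17.5%. Over all distal peaks the shares were 5.24% and 6.50%. CTCF-bearing distal peaks were also the higher ones in general, with median heights of 2.05 in replicate 1 and 1.44 in replicate 2, against 0.612 and 0.741 for those without it.

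The matches at Flt1, Kdr and Erg are given as 30 bases each, turned so that the consensus reads forward, with the consensus in capitals.
Flt1, chr5:147584120-147584149, plus strand: gcagtccttCCACTAGAGGGCgccagggag
Flt1, chr5:147716989-147717018, plus strand: aggaaaccaCCAGCAGAGGGCccagaagtc
Kdr, chr5:76026450-76026479, plus strand: gtgtcccagCCACTAGATGGCaccgaagct
Erg, chr16:95341550-95341579, plus strand: ctgagtccgCCAGCAGAGGGCgtgttttcc
Erg, chr16:95342188-95342217, plus strand: ctcccccttCCAGTAGAGGGCcctttcatc
Erg, chr16:95346071-95346100, minus strand: cctgtgtgaCCACTAGGTGGCggtagagtt
Erg, chr16:95350648-95350677, plus strand: cagcaatgaCCAGCAGAGGGCatgtggcaa

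A match was counted as inside a footprint where both overlapped by at least 1 bp. The Flt1 intronic peak and the Kdr upstream peak each held a match inside a footprint in both animals. Past the 3′ end of Erg, where the nearest gene start was that of Kcnj15, 3 matches lay in footprints in both animals. Those 3 peaks had heights of 6.06, 3.31 and 2.05 in replicate 1 and 3.73, 2.30 and 1.12 in replicate 2. The other Erg match, in a peak of 0.347 and 0.316, and the second Flt1 match, in a peak of 0.347 seen in replicate 1 alone, were in no footprint. The highest Cdh5 distal peak, a Pecam1 peak of 4.43 and 2.68 past its 3′ end, and peaks near Sox18 made up the rest.

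In all, 8 of the 10 member peaks with a match had it in a footprint in replicate 1, and likewise 8 of 10 in replicate 2. Over all distal peaks with a match, 92.6% and 84.0% had it in a footprint. The highest distal peaks of Pecam1 and of Erg held no match. The ETS word CCGGAA was in 4 of 74 distal peaks in replicate 1 and 5 of 57 in replicate 2, against 4.10% and 3.64% of all distal peaks. The FOX word was in none of the members' distal peaks in either animal, against only 2.24% and 2.47% of all distal peaks.

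Genes that act with the members were read in the same windows. A promoter peak in both animals was found for 4 of 8 VEGF and angiopoietin ligands, 2 of 4 co-receptors and related receptors, 8 of 13 endothelial transcription factors and 6 of 16 further endothelial genes. It was found for 9 of 13 blood-brain barrier genes and 3 of 14 mural genes, the markers of pericytes and smooth muscle, beside 4 of 10 members and 62.9% of all genes. Among these lists the highest values were in the ligands and barrier genes, but both also held low ones. In replicate 1 their heights ran from 0.396 to 10.9 and from 0.336 to 21.2.

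Of the ligands, Vegfa, the main attractant of vessels, had 10.9 in replicate 1 and 6.39 in replicate 2, against 0.748 and 0.425 at its receptor Kdr. Vegfb had 4.07 and 2.48 and Vegfc 2.91 and 1.66, while Angpt4 and Vegfd had no promoter peak. Among co-receptors, Nrp2 had 2.78 and 2.32, Nrp1 had 1.09 in replicate 1 and no peak in replicate 2, and Ptprb, an endothelial phosphatase, had 0.542 and 0.336. Flt4, the receptor of lymphatic vessels, had none.

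Of the transcription factors, Ets1 had 5.11 and 3.26, Klf2, which responds to blood flow, 3.33 and 2.08, and Lmo2 1.69 and 0.948. All 3 were above Erg, the highest of the members, in both animals. Foxf2 and Foxq1 had none. Of the further endothelial genes, Egfl7 had 2.85 and 1.71, Esam 1.65 and 1.14, and S1pr1 1.06 and 0.711, whereas Emcn, Eng and Icam2 had none.

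Of the barrier genes, the amino acid transporter gene Slc7a5 had 21.2 and 13.2, the monocarboxylate transporter gene Slc16a1 15.2 and 9.93, and the glucose transporter gene Slc2a1 12.5 and 6.69. Ly6a, Ly6c1 and Slco1a4 had none. Of the mural genes, Tagln had 1.97 and 1.66, Myh11 1.21 and 0.691 and Kcnj8 0.851 and 0.415, while Abcc9, Acta2 and Anpep had none. The mural list had no promoter peak in either animal at 9 of its 14 genes, and the members at 2 of 10, against 32.4% of all genes.

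The log2 ratio of replicate 1 to replicate 2 had a median of 1.04 over 4 members, 0.74 over the ligands, 0.47 over the co-receptors, 0.59 over the transcription factors, 0.50 over the further endothelial genes, 0.61 over the barrier genes, 0.81 over the mural genes and 0.60 over the granule cell genes. The median of the 6 further endothelial genes was near the 0.48 of the 980 genes in the members' height range. Their own heights spread beyond that range on both sides, so the 6 genes are not a comparison at like height. By replicate 1 heights, Egfl7 (2.85) and Esam (1.65) exceeded Erg (1.29), the highest member. Clec14a (0.271) and Adgrf5 (0.206) were lower than Sox17 (0.455), the lowest of the 4 members. Among these 6 genes the ratios ran from -0.08 to 0.74, short of the values of Erg and Flt1. The barrier genes ran from 0.14 to 1.23, with the upper end near the value of Flt1. The mural genes ran from 0.25 to 1.04.

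**Figure D5:**
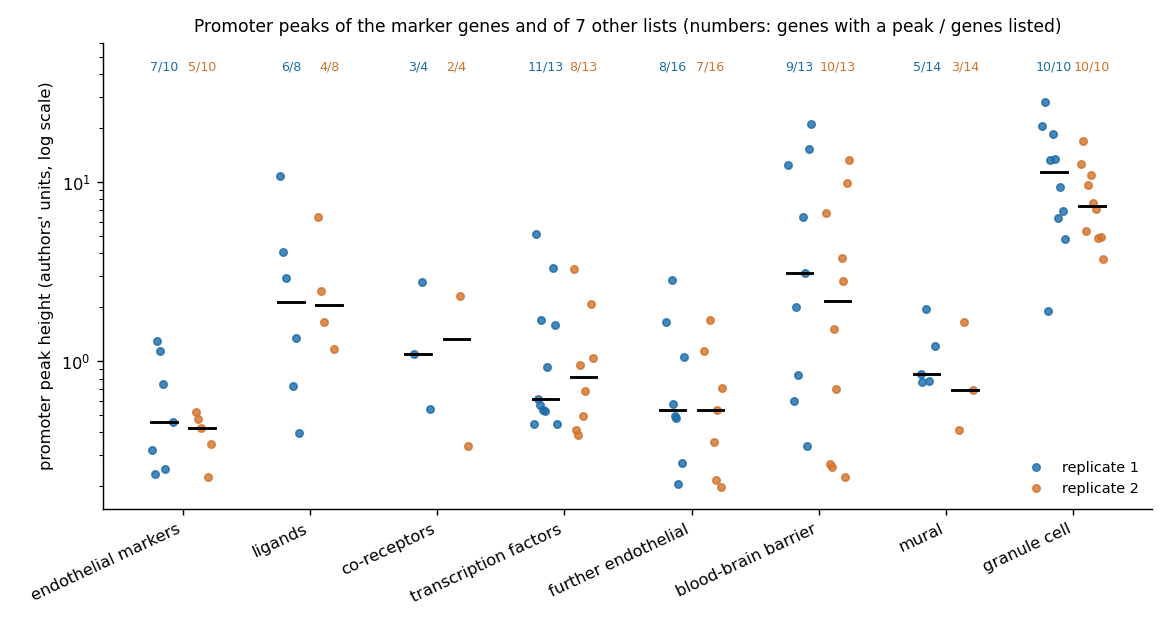
Promoter peak heights (vertical, log scale, authors' units) of the members and of 7 other lists in replicate 1 (blue) and replicate 2 (orange), 1 point per gene with a peak and black bars at the medians. Numbers above give genes with a peak over genes listed. The members' medians of 0.455 and 0.425 are below those of the granule cell genes, 11.4 and 7.36.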

How the data were processed

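Peaks, footprints and false discovery rates were read as deposited, for 2 animals of 1 group, on mm10 per the labels. The aligner, peak caller and footprint caller were not given in the sources used here. The peak height is a signal deposited by the authors, in the longer of their 2 peak lists per animal. False discovery rates, akin to a q-value, were deposited by the authors for stretches below 0.05 alone. Footprints all hold 0.01 in the authors' p-value column, so their positions alone were used.

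Genes were taken from GENCODE M21 (21829 protein-coding symbols). Overlaps needed 1 bp. Windows and territories are as the results state, and the highest overlapping peak gave a gene's height. Motifs were searched on both strands of RefSeq GRCm38.p6. The overlap and motif steps were tested on simulated data. No test between animals was possible.

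The 10 members, the related lists and the motif words were chosen with earlier results of these data known. All members are named. Of each related list, the 3 genes with the highest mean height and up to 3 without any peak are named, in alphabetical order. For each territory the highest distal peak per animal is named, except 1 at Tie1 that is not reported here; other distal peaks, the Cdh5 upstream group and Gabra6 were named after their values were seen. Python 3.11.15, pandas 2.3.3, NumPy 2.4.6, pysam 0.24.0 and matplotlib 3.10.9 were used. Alternatives covered the window, the starts, the peak list, the territory and leaving out each animal.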

Additional observations from a re-analysis of the deposited data

How the results depend on the processing

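The members' median log2 height ratio was 0.82 to 1.26 under the alternatives run, against 0.59 to 0.60 for all promoters. It rested on 2 to 5 genes that changed with the setting. Sox17, with the lowest ratio, was not among them with the outermost starts alone or with the shorter peak list. The number of members with a promoter peak in both animals, 4, was 2 (Kdr and Erg) with the shorter peak list, and ran from 5 to 7 when either animal was left out, since a peak in the remaining animal then sufficed. The count of members with a promoter footprint, 2, was 1 with a 500 bp window and ran from 2 to 7 when either animal was left out. The median height, 0.440 over both animals, was 0.386 with a 500 bp window, 0.599 with 2000 bp, where the Cdh5 upstream peaks enter, 0.492 with the outermost starts alone and 0.709 with the shorter list. It ran from 0.425 to 0.455 when either animal was left out, and stayed far below all promoters, 7.87, throughout. The median number of territory peaks, 7.75, was 4.5 with 10000 bp flanks and 2 in the gene body alone, where all genes had 4 and 2, so the members' lower count did not hold in the smaller territories. It was 5.25 with the shorter list, against 7 for all genes, and ran from 7 to 8.5 when either animal was left out. The median number of footprints, 15, was 1.25 in the gene body alone, against 4 for all genes, and ran from 10 to 20 by animal. No paired analysis was possible because the 2 animals form 1 group. The unknown depth limits what a missing low peak or footprint shows.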
